A study of Mus musculus with 8 samples.

Results

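Collagen and laminin chain genes were described in RNA of the dLGN, the dorsal lateral geniculate nucleus, where retinal axons meet thalamic neurons, from 8 mice labelled C57BL/6J. All were male or female littermates at P27 (postnatal day 27) under standard housing. Of the libraries, 4 carry the label Fn14 WT (wild type) and 4 the label Fn14 KO (knockout of Fn14, the receptor for the cytokine TWEAK, encoded by Tnfrsf12a). Per the labels' protocols, the tissue was microdissected from coronal sections and each mouse gave 1 library; the sources used here give neither the knockout allele nor the cells that lose the receptor. Libraries are named WT 1 to WT 4 and KO 1 to KO 4 after their labels. A gene was a member when its symbol was Col, digits, a, digits, or began with Lama, Lamb or Lamc and a digit. Of 23116 genes in the deposited table, 54 were members, 43 collagen chains and 11 laminin chains, and 50 of the 54 had a mean of at least 1 TPM (a level scaled by transcript length and library total) over the 8 libraries and were tested. The 4 below that mean were Lamb3, Col6a6, Col17a1 and Col4a3.

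Basement membranes are thin sheets of extracellular matrix in which a network of laminin and a network of type IV collagen lie against cells. In the brain they surround blood vessels and line the surface beneath the meninges, and endothelial cells, pericytes, fibroblasts and astrocytes add chains to them. Laminins are trimers of 1 alpha, 1 beta and 1 gamma chain. Collagens are trimers of alpha chains: type IV forms sheets, fibrillar types such as I, II, III, V and XI form fibrils in connective tissue and cartilage, and the remaining types bind fibrils, form beaded filaments or span the cell membrane. The members were sorted into basement membrane collagens (types IV, XV and XVIII, 8 genes), laminin chains (11 genes), fibrillar collagens (11 genes) and other collagens (24 genes).

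Col4a1 and Col4a2 encode the chains of the most widespread type IV trimer and lie head to head on chromosome 8 (GRCm38, GENCODE M21), Col4a1 from 11198423 to 11312826 on the minus strand and Col4a2 from 11312805 to 11449287 on the plus strand, so that the annotated genes overlap by 22 bases at their starts. Their RefSeq promoter windows (GRCm38.p6, 250 bases before to 50 after the start site) share 78 bases, chr8:11312777-11312854. Both are printed 5′ to 3′ on the strand of their own gene, because the levels of this pair stayed close to each other in all 8 libraries, as described further on. Whether the shared bases bear on these levels was not tested. Capitals mark the shared stretch, which reads as the reverse complement in the other window.
Col4a1, chr8:11312777-11313076, minus strand: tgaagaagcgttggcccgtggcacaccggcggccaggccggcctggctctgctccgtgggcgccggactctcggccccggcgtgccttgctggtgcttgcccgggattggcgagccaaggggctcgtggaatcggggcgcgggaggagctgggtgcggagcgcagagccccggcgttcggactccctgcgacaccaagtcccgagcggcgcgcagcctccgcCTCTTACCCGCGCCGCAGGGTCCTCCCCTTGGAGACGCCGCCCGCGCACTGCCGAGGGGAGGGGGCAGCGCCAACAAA
Col4a2, chr8:11312555-11312854, plus strand: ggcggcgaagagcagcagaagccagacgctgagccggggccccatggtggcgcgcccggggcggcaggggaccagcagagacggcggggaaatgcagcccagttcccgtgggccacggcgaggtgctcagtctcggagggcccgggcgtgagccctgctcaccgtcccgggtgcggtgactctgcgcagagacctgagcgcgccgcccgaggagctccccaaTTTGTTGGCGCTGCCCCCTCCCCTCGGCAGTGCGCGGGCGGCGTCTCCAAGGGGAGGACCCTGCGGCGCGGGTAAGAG
In letters, the window of Col4a1 is 74.0% G or C and that of Col4a2 73.7%, against a median of 52.7% over all 32851 windows of the RefSeq table. Each window was searched on both strands for GGGCGG (a GC box), CCAAT and TATAAA, and matches to different motifs may overlap. GGGCGG occurred 1 time in the Col4a1 window and 3 times in the Col4a2 window, CCAAT 1 time in each, and TATAAA in neither. Over all windows, 35.7% held GGGCGG, 37.4% CCAAT and 13.6% TATAAA. Of the 54 members, 40 had a window in the table. Their 44 windows held GGGCGG in 26, CCAAT in 14 and TATAAA in 5. These matches describe letters and say nothing of binding.

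The targeted gene and the libraries were examined first. Tnfrsf12a was at 4.78, 5.48, 3.67 and 0.82 TPM in WT and at 2.95, 1.12, 1.32 and 1.86 TPM in KO, so the groups overlapped. The value in the library labelled WT 4 was under that of each KO library, which goes against its label. The deposited values summed to between 968958 and 997426 per library, and depth per library is unknown. Mbp, the gene of myelin basic protein, stood at 11153 TPM (WT 1) and 13566 TPM (WT 2) against 34.4 to 51.3 TPM elsewhere, while Dcx, a gene of young neurons, gave 5.08 and 9.50 TPM there and 368 to 619 TPM in the rest. These 2 libraries, called the Mbp-high pair because Mbp exceeded 1000 TPM, stood apart within the WT group. Every difference between KO and WT below that uses either of them contains this split. The thalamic transcription factor Tcf7l2 was detected in all 8 libraries, lowest in WT 3 at 43.4 TPM against 250 to 1074 TPM elsewhere. Of the other thalamic markers examined, Gbx2 and Rora were also lowest in WT 3, at 4.68 and 13.9 TPM. Lef1 was lowest in KO 3 at 8.2 TPM, with WT 3 next at 12.4 TPM. Rora also separated the Mbp-high pair, at 628 TPM (WT 1) and 529 TPM (WT 2) against 13.9 to 101 TPM elsewhere. In bulk tissue, fewer cells of a type and less RNA per cell cannot be told apart.

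**Figure D1:**
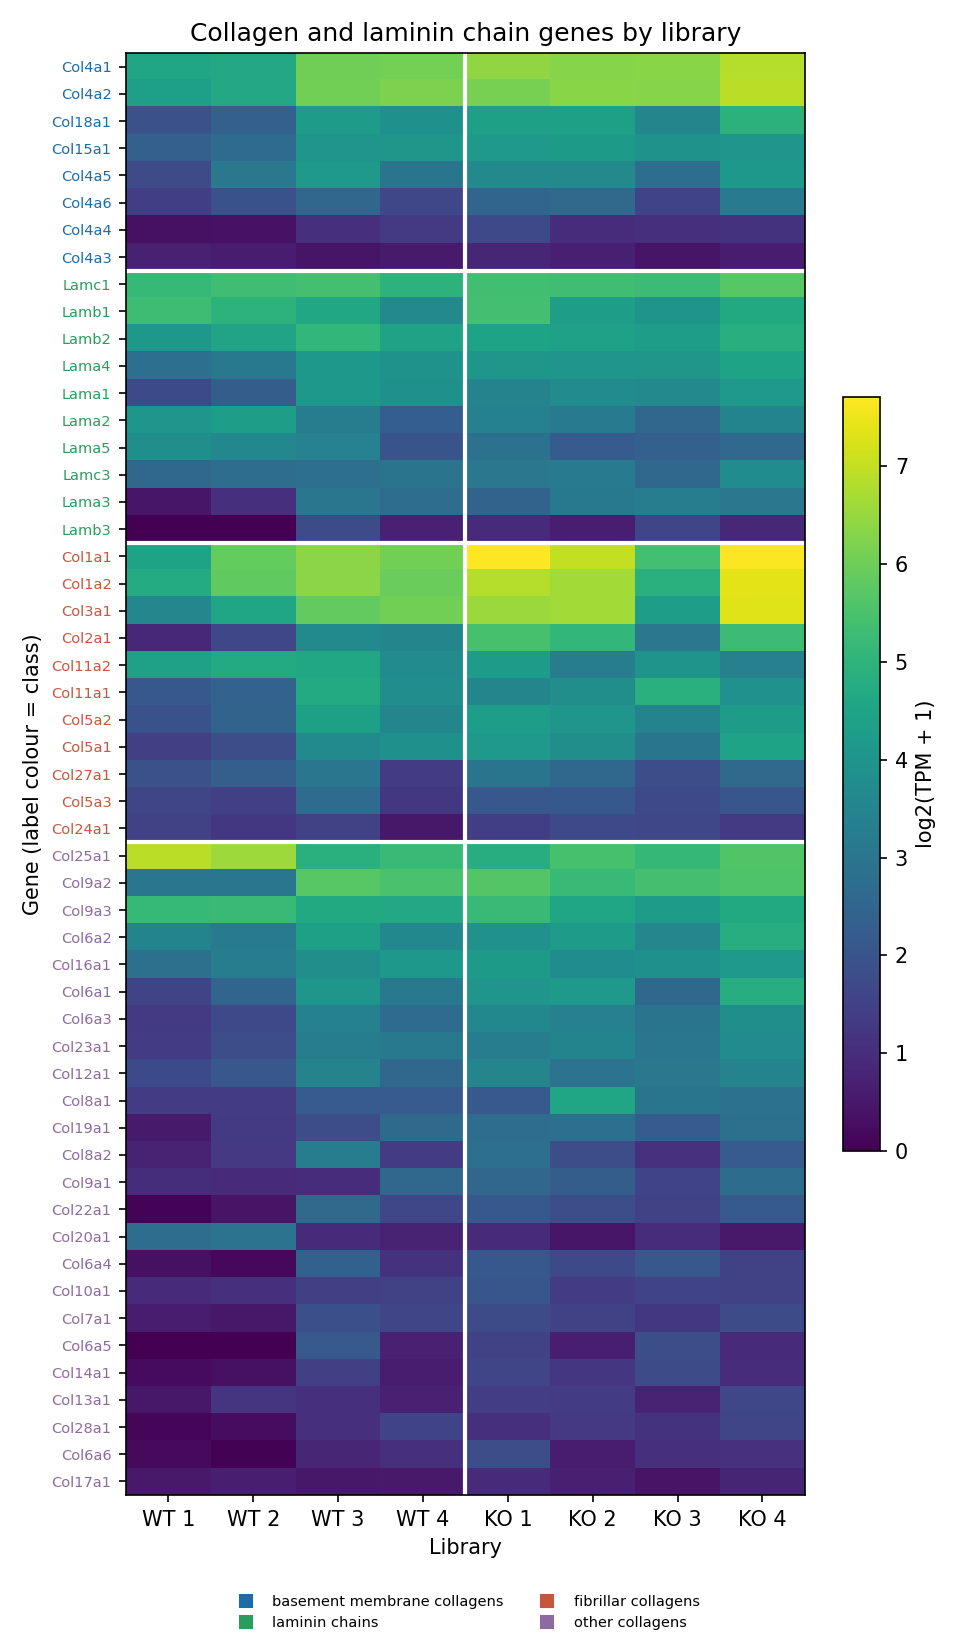
Level of the members, 1 not shown, as log2(TPM + 1) in each library, with genes as rows grouped by class (label colour, order by mean level within a class) and libraries as columns, WT left and KO right of the white line. Horizontal white lines part the classes. Of the 54 members, 31 have both WT 1 and WT 2 below the other 6, whereas Col25a1, Lama2, Lama5 and Col20a1 are brighter there.

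By mean level over the 8 libraries, type I collagen led, with Col1a1 at 101 TPM and Col1a2 at 79.0 TPM, followed by Col4a1 at 67.0, Col4a2 at 66.0, Col3a1 at 65.7 and Col25a1 at 53.8 TPM. The most abundant laminin chain was Lamc1 at 39.4 TPM. Summed over all 54 members, the level ran from 480 and 576 TPM in the Mbp-high pair to 1140 and 1399 TPM in KO 1 and KO 4. The other 4 libraries lay between, with WT 3 at 906 TPM, WT 4 at 744 TPM, KO 2 at 999.9 TPM and KO 3 at 666 TPM.

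Among the basement membrane collagens, Col4a1 was at 22.5, 24.2, 64.8 and 67.5 TPM in WT 1 to WT 4 and at 84.6, 77.7, 79.3 and 115 TPM in KO 1 to KO 4. All 4 KO libraries lay above all WT libraries, with WT 1 and WT 2 lowest and KO 4 highest. Col4a1 was the only tested member whose groups did not overlap. Over all tested genes, 2.42% did not overlap with KO higher and 0.921% with KO lower. The WT mean was 44.7 ± 24.8 TPM and the KO mean 89.2 ± 17.7 TPM (SD, n = 4), with a KO minus WT difference of 1.14 (SE 0.39) in log2(TPM + 1) units. Its adjusted p in limma was 0.429, above the threshold of 0.05. Without both WT 1 and WT 2 the difference was 0.41 (SE 0.17, adjusted p = 0.9997), and the 4 KO libraries still lay above WT 3 and WT 4. In that comparison 4.57% of all tested genes did not overlap with KO higher and 4.73% with KO lower.

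Col4a2, the partner chain, was at 19.5, 24.4, 66.5 and 71.2 TPM in WT and at 68.3, 80.1, 79.1 and 119 TPM in KO. WT 4 lay above KO 1, so the groups overlapped. The difference was 1.10 (SE 0.43, adjusted p = 0.429 in limma), and 0.30 (SE 0.21) without the Mbp-high pair. Within a library, the level of Col4a1 divided by that of Col4a2 ran from 0.95 to 1.24 with a median of 0.98, while Col4a1 itself ran from 22.5 to 115 TPM.

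The other type IV chains, known from basement membranes of kidney, lung and eye, also lie in head-to-head couples. Col4a5 was at 2.48, 7.55, 16.9 and 7.0 TPM in WT and at 11.3, 11.4, 5.85 and 16.1 TPM in KO, with WT 3 highest and WT 1 lowest. Its neighbour Col4a6 on chromosome X was at 1.69, 2.81, 4.85 and 2.09 TPM in WT and at 4.74, 5.33, 1.93 and 8.10 TPM in KO. The ratio of Col4a5 to Col4a6 ran from 1.47 in WT 1 to 3.48 in WT 3 and was above 1 in all 8 libraries. Col4a3 and Col4a4 were low. Col4a3 stayed between 0.34 and 0.77 TPM, while Col4a4 was at 0.28 and 0.31 TPM in the Mbp-high pair against 0.98 to 2.28 TPM in the other 6, so that their ratio was 2.32 and 1.74 in the Mbp-high pair and 0.32 to 0.62 elsewhere.

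Col18a1 and Col15a1 encode basement membrane collagens that carry heparan sulfate or chondroitin sulfate chains, and the C-terminal fragment of type XVIII is endostatin. By the annotation Col18a1 overlaps Slc19a1, which lies on the other strand, and reads there could belong to either. Col18a1 was at 2.77, 4.19, 17.8 and 13.7 TPM in WT and at 19.6, 19.8, 10.5 and 30.0 TPM in KO. Col15a1 was at 4.13, 5.54, 15.3 and 15.8 TPM in WT and at 16.9, 17.3, 14.6 and 15.3 TPM in KO. Both were lowest in the Mbp-high pair, and both overlapped between groups. The KO minus WT difference of Col18a1 was 1.21 (SE 0.56, adjusted p = 0.429) and 0.25 without the Mbp-high pair. Col15a1 stood at 0.79 and 0.03.

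**Figure D2:**
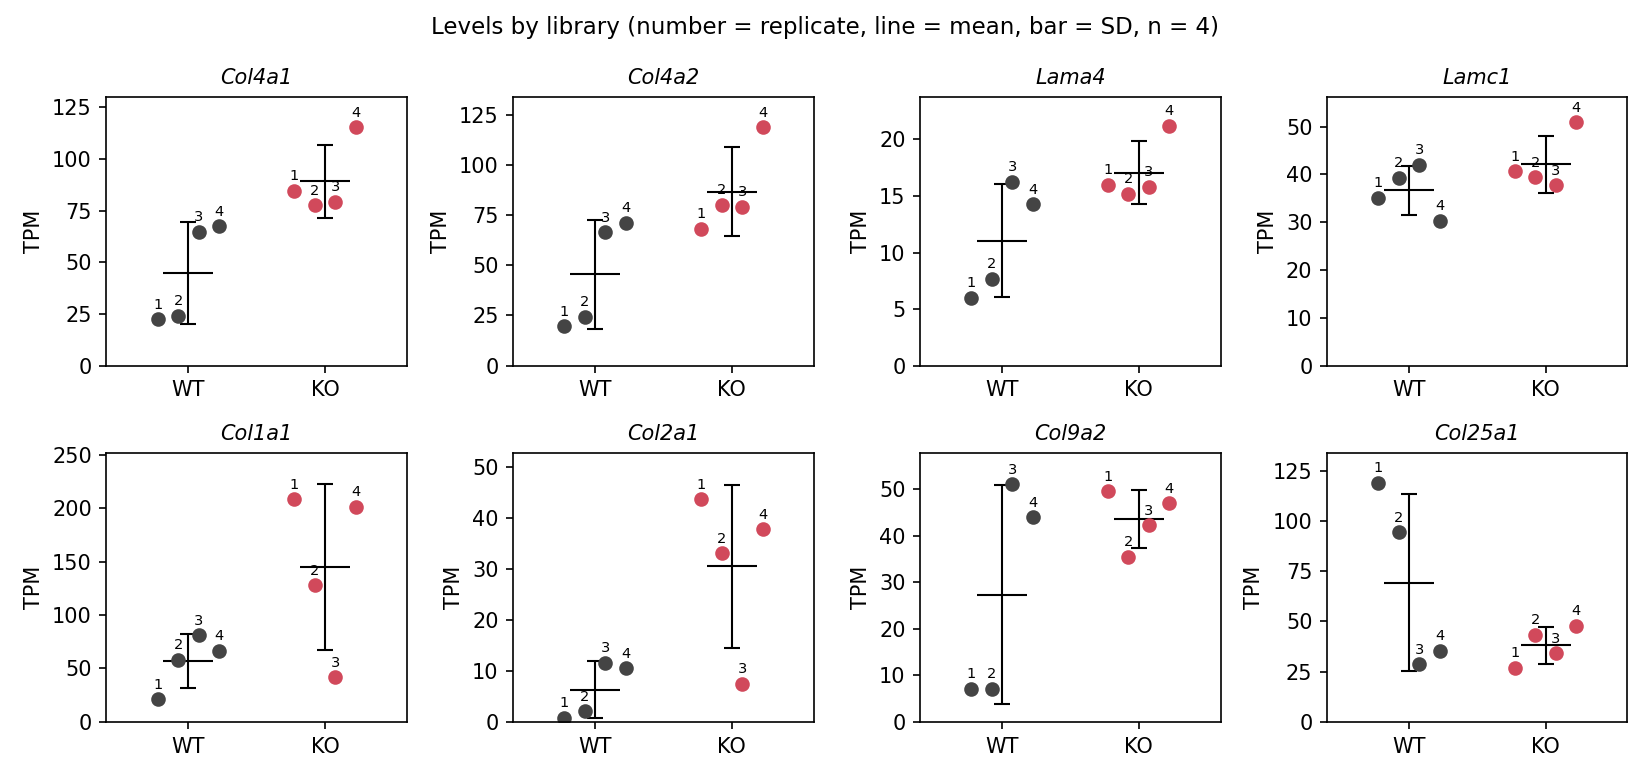
TPM of 8 members in each library, with WT in grey and KO in red, the replicate number beside each point, and the mean with SD (n = 4) as a line and bar. Col4a1 reaches 67.5 TPM at most in WT and 77.7 TPM at least in KO, Lamc1 stays between 30.4 and 50.9 TPM, and KO 3 lies apart from the other KO libraries in Col1a1 and Col2a1.

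Laminin chains varied less in sum than basement membrane or fibrillar collagens, from 123 TPM in WT 4 to 190 TPM in KO 4, with WT 1 and WT 2 inside this range at 135 and 142 TPM. Lamc1, the gamma chain of most laminins, was at 35.1, 39.3, 42.0 and 30.4 TPM in WT and at 40.6, 39.4, 37.7 and 50.9 TPM in KO, a difference of 0.20 (SE 0.15, adjusted p = 0.485). The beta chains did not separate the groups. Lamb1 was at 39.0, 30.6, 23.4 and 11.3 TPM in WT and at 41.1, 18.7, 14.9 and 24.4 TPM in KO, and Lamb2, the beta chain known from the neuromuscular synapse, was at 16.4, 21.6, 33.7 and 20.7 TPM and at 21.3, 20.2, 18.95 and 27.3 TPM. Their differences were −0.04 (SE 0.42) and −0.04 (SE 0.23), and both turned above 0 when some single libraries were left out.

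The alpha chains, which decide the receptors a laminin binds, pointed in opposite directions across the Mbp split. Lama4, a chain of vascular basement membranes, was at 6.02, 7.68, 16.3 and 14.3 TPM in WT and at 16.01, 15.2, 15.8 and 21.2 TPM in KO. Lama2, the chain that is best known from muscle, was at 15.5, 19.2, 8.36 and 3.89 TPM in WT and at 9.36, 8.26, 4.86 and 10.2 TPM in KO. Lama4 was thus lowest and Lama2 highest in the Mbp-high pair, and the ratio of Lama2 to Lama4 was 2.57 and 2.497 there and 0.27 to 0.58 in the other 6. Lama5 was at 13.2, 11.2, 9.73 and 3.01 TPM in WT and at 6.42, 3.78, 4.14 and 5.24 TPM in KO, again highest in the Mbp-high pair. Lama1, an early embryonic chain, was at 2.30 and 3.83 TPM in the Mbp-high pair against 10 to 16.99 TPM in the other 6. The limma differences were 0.67 (SE 0.31) for Lama4 and −0.68 (SE 0.40) for Lama5, both at an adjusted p of 0.429, and 0.14 and −0.18 without the Mbp-high pair.

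Lama3 and Lamb3 encode chains known from epithelial anchoring in skin. Lama3 was at 0.38 and 1.10 TPM in the Mbp-high pair against 4.48 to 8.53 TPM in the other 6. Lamb3 was listed at 0 in the Mbp-high pair against 0.57 to 2.42 TPM in the others. Both chains were therefore lowest in the same pair of libraries. Lama3 stood at a KO minus WT difference of 1.14 (SE 0.58, adjusted p = 0.429) and at 0.09 without both. Lamc3 was between 4.91 and 12.5 TPM with overlapping groups. By the annotation, Lamb3 overlaps G0s2 and Hsd11b1 on the other strand, with the same uncertainty.

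Fibrillar collagens had the widest range. Their sum was 93.9, 181, 326 and 256 TPM in WT and 535, 418, 164 and 638 TPM in KO. KO 3 thus lay below WT 2, WT 3 and WT 4, and the WT and KO ranges overlapped. Col1a1, the major chain of type I fibrils, was at 21.4, 58.2, 81.0 and 66.6 TPM in WT and at 208, 128, 41.7 and 201 TPM in KO. Col1a2 was at 25.9, 55.2, 81.5 and 61.2 TPM in WT and at 115, 98.5, 29.0 and 166 TPM in KO. The ratio of Col1a1 to Col1a2, whose genes lie on different chromosomes, ran from 0.83 in WT 1 to 1.81 in KO 1. It lay between 0.83 and 1.09 in WT and between 1.21 and 1.81 in KO, without overlap, and was not tested. Of the chain gene ratios computed here, it was the only one without overlap between WT and KO. The share of non-overlapping ratios over all gene pairs was not computed, so no background stands beside it. The differences were 1.25 (SE 0.58) for Col1a1 and 0.72 (SE 0.55) for Col1a2, with adjusted p of 0.429 and 0.479.

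Col3a1, which accompanies type I in vessel walls and meninges, was at 10.9, 22.1, 56.9 and 65.5 TPM in WT and at 93.4, 98.2, 18.7 and 160 TPM in KO. KO 3 again lay with the low libraries. Col2a1, the main collagen of cartilage, was at 0.86, 2.14, 11.6 and 10.5 TPM in WT and at 43.6, 33.1, 7.51 and 37.8 TPM in KO. With KO 3 below WT 3 and WT 4 the groups overlapped, and a WT mean of 6.29 ± 5.57 TPM and a KO mean of 30.5 ± 15.9 TPM (SD, n = 4) gave 2.30 (SE 0.76, adjusted p = 0.429), the largest positive difference among the 50 tested members. Without both WT 1 and WT 2 it was 1.14 (SE 0.66). Col11a2, a minor fibrillar chain, went the other way, at 20.2, 25.1, 23.2 and 12.2 TPM in WT and 17.6, 8.55, 15.1 and 9.16 TPM in KO, a difference of −0.65 (SE 0.30, adjusted p = 0.429) and −0.45 without both. Of the other fibrillar members, Col5a1, Col5a2 and Col11a1 had both WT 1 and WT 2 below the other 6, and Col5a3, Col24a1 and Col27a1 stayed between 0.40 and 7.16 TPM with no separation.

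Among the other collagens, the transmembrane collagen gene Col25a1, which neurons express, stood at 119, 94.3, 28.9 and 35.4 TPM in WT and at 27.02, 43.4, 34.2 and 47.9 TPM in KO. WT 1 and WT 2 lay above the range of the other 6. The difference was −0.64 (SE 0.46, adjusted p = 0.465) and turned to 0.21 without both. Col9a2 and Col9a3 encode chains of type IX, which coats cartilage fibrils. Col9a2 was at 7.13, 7.09, 51.0 and 44.0 TPM in WT and at 49.6, 35.4, 42.2 and 47.0 TPM in KO, whereas Col9a3 was at 34.9, 36.2, 24.5 and 24.1 TPM and at 36.4, 22.7, 17.7 and 24.5 TPM. The partner chains thus diverged in the Mbp-high pair, with a Col9a2 to Col9a3 ratio of 0.20 in each and 1.36 to 2.38 in the other 6. By the annotation Col9a3 overlaps Tcfl5 on the other strand, with the same uncertainty. Their KO minus WT differences were 1.16 (SE 0.65) and −0.25 (SE 0.24), and turned to −0.13 and 0.01 without both.

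Type VI collagen forms beaded microfilaments around cells. Col6a2 was at 10.1, 8.08, 19.9 and 11.1 TPM in WT and at 14, 17.7, 10.9 and 26.9 TPM in KO, and Col6a3 at 1.47, 2.22, 9.52 and 5.50 TPM and at 11.2, 9.24, 6.76 and 13.4 TPM. All 6 type VI genes were lowest in the Mbp-high pair, and 1 of them, Col6a5, was listed at 0 in both. The difference was 0.47 (SE 0.34) for Col6a2 and 1.17 (SE 0.46) for Col6a3, with adjusted p of 0.464 and 0.429. Col6a4, Col6a5 and Col6a6 are neighbouring copies of one another on chromosome 9, and how reads were divided between them was not stated.

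Col8a1, a short-chain collagen made by endothelium and other cells, was at 1.53, 1.6, 3.72 and 3.61 TPM in WT and at 3.49, 22.5, 7.0 and 6.41 TPM in KO. KO 2 was highest by a wide gap, and KO 1 lay below WT 3 and WT 4. The difference was 1.36 (SE 0.51, adjusted p = 0.429), and 0.93 without the Mbp-high pair. Col19a1, which in mouse hippocampus is made by interneurons and is needed for inhibitory synapses, was at 0.47, 1.49, 2.52 and 5.32 TPM in WT and at 5.77, 6.09, 3.72 and 6.14 TPM in KO. It overlapped through KO 3 and WT 4, with a difference of 1.08 (SE 0.43, adjusted p = 0.429) and 0.43 without both. Col20a1 was the other collagen above the rest in the Mbp-high pair, at 5.74 and 6.71 TPM against 0.39 to 0.96 TPM. Col16a1 was at 6.12 and 8.50 TPM in the Mbp-high pair against 12.5 to 17.3 TPM in the other 6. The remaining tested members of this class had a mean of 11.7 TPM or less.

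Across the Mbp split, both WT 1 and WT 2 lay below the range of the other 6 for 29 of the 50 tested members and above it for 4, and 17 were not separated. Over all tested genes 40.5% lay below and 22.5% above. The 4 above were Col20a1, Col25a1, Lama2 and Lama5. By class, 5 of 7 basement membrane collagens, 4 of 10 laminin chains, 4 of 11 fibrillar collagens and 16 of 22 other collagens lay below. After quantile normalization 22 members lay below and 6 above, against 29.4% and 29.3% of all genes, and with TMM factors 27 and 6, against 31.8% and 29.0%. Counted over all 54 members on the deposited scale, 31 lay below, 4 above and 19 within. A member that reached the filter through the other 6 libraries had to be lower in the Mbp-high pair, so these counts are a description. No test was run, because the split was made from the data and not from the labels. The median log2 difference of the 6 minus the pair was 1.11 over the members and 0.26 over all tested genes. It was 1.54 for basement membrane collagens, 0.34 for laminin chains, 1.52 for fibrillar collagens and 1.10 for other collagens.

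**Figure D3:**
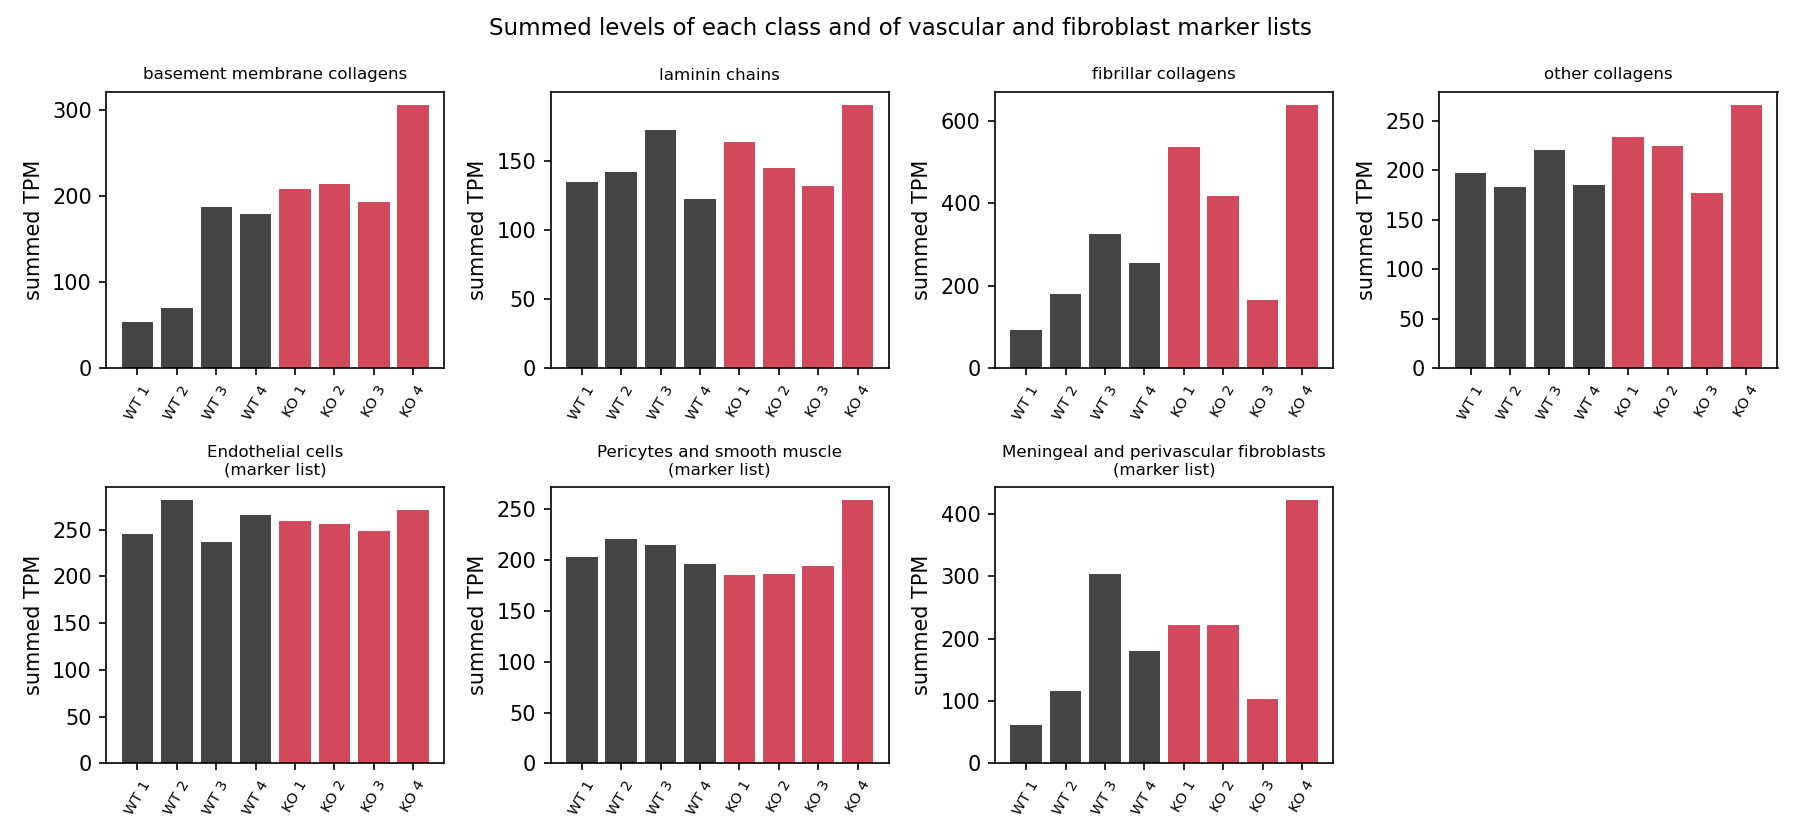
Summed TPM per library of each member class and of 3 marker lists for endothelial cells, pericytes with smooth muscle, and fibroblasts (WT grey, KO red, axes from 0). Basement membrane collagens reach 54 TPM (WT 1) and 69.5 TPM (WT 2) against 179 to 305 TPM in the other 6, while the endothelial sum runs from 237 to 282 TPM with Ly6c1 included, and without it is lower in WT 1 and WT 2 (158 and 196 TPM) than in the rest.

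Markers of the cells that make these chains were set beside the members. The summed level of 10 endothelial markers was 246 and 282 TPM in the Mbp-high pair and 237 to 271 TPM in the other 6. That sum rests on Ly6c1, which was at 87.6 and 85.3 TPM against 9.29 to 12.7 TPM. Without it the other 9 markers summed to 158 and 196 TPM in the Mbp-high pair, below the 226 to 262 TPM of the other 6. Of the 10, Cldn5, Cdh5, Kdr and Esam lay below the other 6 in the Mbp-high pair, Flt1 and Ly6c1 lay above, and 4 were not separated. For pericytes and smooth muscle, 7 of 10 markers were analysed here, and their sum was 203 and 221 TPM against 186 to 259 TPM. Of those 7, 3 lay below, 1 above (Rgs5) and 3 were not separated. Without Rgs5 the sum was 101 and 127 TPM against 107 to 183 TPM. For fibroblasts of the meninges and around vessels, 9 of 10 markers were analysed, and their sum was 61.7, 116, 303 and 180 TPM in WT and 221, 222, 102 and 422 TPM in KO. Of those 9, 2 lay below the other 6 in the Mbp-high pair, 0 above and 7 were not separated. Fibroblast markers and fibrillar collagens were both highest in KO 4, and in both KO 3 lay below the other KO libraries. The sums differed in WT 3, which lay above KO 1 and KO 2 for fibroblast markers and below both for fibrillar collagens. The lowest library of the fibroblast sum was WT 1, but without Igf2 it was KO 3 at 39.9 TPM, with WT 1 at 46.1 TPM. For astrocytes, 3 of 5 markers were analysed, and their sum was 526 and 581 TPM in the Mbp-high pair against 218 to 481 TPM, with Gja1 above the other 6 and 2 not separated. No defining marker of these 3 lists was listed at 0 in any library. The 7 choroid plexus markers summed to 26.2, 21.6, 128 and 41.7 TPM in WT and to 473, 158, 54.8 and 91.0 TPM in KO, and Aqp1 of that list was at 0 in WT 1. In KO 1, Ttr gave 404 TPM of that sum. The part of any of these cell types in the values of the members was not tested.

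The study compared libraries labelled KO with libraries labelled WT. In limma, 0 of the 50 tested members and 0 of 15967 genes passed in either direction (0.0% each), and the adjusted p of the members ran from 0.429 to 0.957. At an unadjusted p under 0.05, KO was higher for 6 members and lower for 0, against 5.33% and 2.33% of all genes (851 and 372; 750 and 555 after quantile normalization). The 6 were Col2a1, Col4a1, Col8a1, Col4a2, Col6a3 and Col19a1. Differences lay above 0 for 42 members and below 0 for 8, against 60.1% and 39.9% of all genes. The median was 0.70 over the members and 0.10 over all tested genes, and the members' median was 0.403 without WT 1 alone and 0.404 after quantile normalization. It was 0.79 for basement membrane collagens, 0.28 for laminin chains, 0.77 for fibrillar collagens and 0.63 for other collagens. Without WT 1 alone these were 0.482, 0.241, 0.447 and 0.378. Quantile normalization moved the median of all genes from 0.102 to 0.002. With it 42 members lay above 0, and at an unadjusted p under 0.05 KO was higher for 8 and lower for 1, against 4.7% and 3.48% of all genes.

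Without both WT 1 and WT 2, the 4 KO libraries were set against WT 3 and WT 4 alone. Of the members, 0 passed (smallest adjusted p = 0.9997), and 0 reached an unadjusted p under 0.05 in either direction, against 1.03% higher and 1.11% lower of all genes. In that comparison 0.0% of all genes passed as higher and 0.0125% as lower. Differences lay above 0 for 36 of the 50 members and below 0 for 14, against 49.3% and 50.7%, with a median of 0.14 over the members and −0.003 over all genes. Class medians were 0.25 for basement membrane collagens, 0.11 for laminin chains, 0.25 for fibrillar collagens and 0.14 for other collagens. Counts at an unadjusted p under 0.05 moved with single libraries, over all genes as well as over the members. Leaving out WT 3, the library lowest in Tcf7l2, put 23 members as higher and 1 as lower, against 19.2% and 7.52% of all genes. Leaving out WT 4 put 17 and 3, against 16% and 11%. For KO 3 the counts were 12 and 0, against 3.98% and 1.86%. They were 2 and 0 when WT 1, WT 2 or KO 4 was left out, against 1.25% and 0.658%, 1.27% and 0.639%, and 1.81% and 0.908%. For KO 2 they were 3 and 0, against 2.07% and 0.896%, and for KO 1 they were 4 and 1, against 2.22% and 1.2%. After adjustment 0 members passed in each of these.

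**Figure D4:**
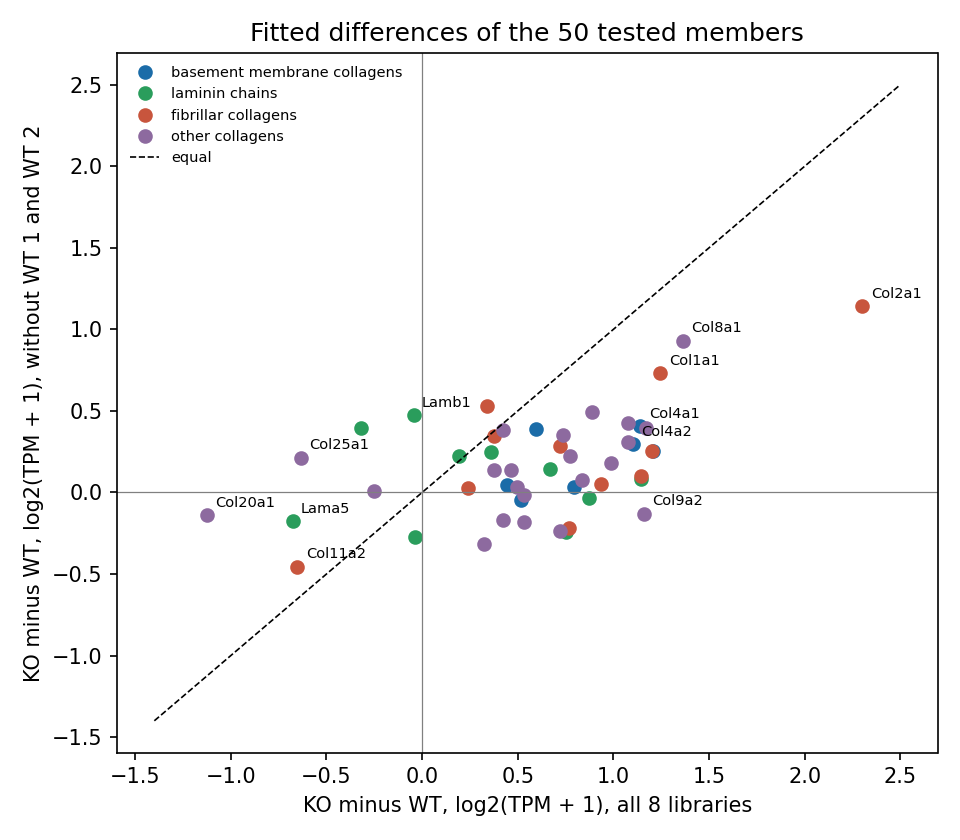
KO minus WT difference on the log2(TPM + 1) scale of the 50 tested members, with all 8 libraries on the x axis and without WT 1 and WT 2 on the y axis, coloured by class, with the dashed line marking equal values. Col2a1 falls from 2.30 to 1.14 and Col4a1 from 1.14 to 0.41, and Col25a1 and Col9a2 change sign.

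**Figure D5:**
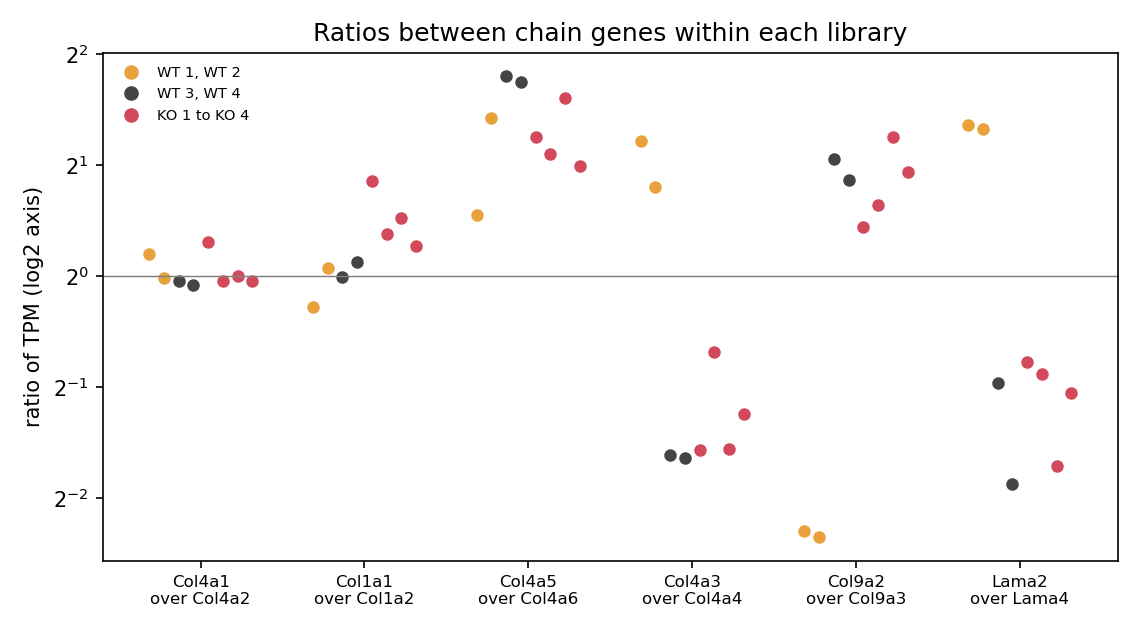
Ratio of the TPM of 2 chain genes within each library, on a log2 axis, with WT 1 and WT 2 in orange, WT 3 and WT 4 in grey and KO in red, each group of points in the order WT 1 to KO 4. Col4a1 over Col4a2 stays between 0.95 and 1.24, while Col9a2 over Col9a3 is 0.20 in WT 1 and WT 2 and 1.36 to 2.38 in the others.

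Genes that act with the members were read from lists. Of 14 other basement membrane proteins, 13 were tested, 0 passed, 11 lay above 0 and 2 below, and the median difference was 0.65, and 0.14 without the Mbp-high pair. Agrn, the agrin gene, was at 113 and 116 TPM in the Mbp-high pair against 261 to 350 TPM in the other 6. Nid1, the nidogen that links laminin to type IV collagen, was at 16.1 and 21.3 TPM against 28.8 to 65.0 TPM. Sparc, which binds collagen and is abundant in astrocytes, lay on the other side, at 1011 and 959 TPM against 121 to 297 TPM. Fbln1, a fibulin gene, had the smallest p of the list, with a difference of 1.06 (SE 0.42, adjusted p = 0.429) and 0.33 without the Mbp-high pair.

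Of 29 collagen processing enzymes and chaperones, 28 were tested, 4 of them under an older symbol for a prolyl 3-hydroxylase family member and 2 for a collagen galactosyltransferase, and 0 passed. Differences lay above 0 for 20 and below 0 for 8, with a median of 0.16 and −0.10 without both. Of the 28, 12 lay below the other 6 in the Mbp-high pair, 5 lay above and 11 were not separated. Over all tested genes these shares were 40.5% below and 22.5% above. Among the 12 below, Crtap was at 3.04 and 5.11 TPM in the Mbp-high pair against 10.31 to 17.12 TPM. P4ha1 and Plod1, which hydroxylate proline and lysine in collagen chains, were at 42.6 and 49.1 TPM and at 53.6 and 65.8 TPM in the Mbp-high pair, above the 9.91 to 17.9 TPM and 10.9 to 19.7 TPM of the other 6. Serpinh1, the collagen chaperone HSP47, was at 27.9 and 43.0 TPM in the Mbp-high pair against 37.6 to 99.6 TPM in the others, with overlap. Loxl1, a crosslinking oxidase of smallest p in the list, had a difference of 1.51 (SE 0.53, adjusted p = 0.429) and 0.85 without both. Of 15 receptors, all tested, 0 passed, 6 lay above 0 and 9 below, with a median of −0.08. In the Mbp-high pair 5 of the receptors lay below the other 6, 4 lay above and 6 were not separated, against 40.5% and 22.5% of all tested genes. Itgb1, the shared beta subunit of laminin and collagen integrins, was between 76.9 and 105 TPM in all 8 libraries. Dag1, the dystroglycan gene, was at 76.4 and 81.35 TPM in the Mbp-high pair, below the 88.1 to 120 TPM of the other 6. Ddr1, a collagen receptor kinase, was at 139 and 175 TPM in the Mbp-high pair against 51.1 to 127 TPM, with a difference of −0.75 (SE 0.29, adjusted p = 0.429).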

How the data were processed

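Total RNA of the dLGN of 8 mice was sequenced after ribosomal RNA depletion, per the labels' protocols. The authors deposited 1 gene table in TPM, named so by its sheet, with 4 WT and 4 KO columns and their group means, which were not used. BWA, edgeR 3.14.0 and the builds GRCm38 and mm10 appear, without settings, in the submitters' processing notes. Depth is unknown, so no counting interval is given, and all genes share the precision of 4 libraries a group.

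Members and lists were chosen with earlier results of these data known. Values were analysed as log2(TPM + 1), which understates change at low levels. Genes averaging 1 TPM or more (15967) were fitted with limma 3.58.1 in R 4.3.3 (trend, robust, two-sided, no covariate, Benjamini-Hochberg over all tested genes, threshold 0.05). The fit was also run on simulated data with independent noise for each gene. Such data lack the split of the Mbp-high pair, so they cannot show how the fit behaves under it. TMM factors were computed on TPM as unweighted trimmed means. Alternatives were another pseudocount (0.1), filters, scalings, variance model, replicate block and left-out libraries; marker sums without 1 gene were added after seeing the data. Named members were, in each of 4 classes, the 4 of highest mean and the 3 of smallest p, plus the type IV pairs; others named were chosen after their values were seen. Positions are from GENCODE M21 and promoter windows from RefSeq. Python 3.11.15, pandas 2.3.3, numpy 2.4.6 and matplotlib 3.10.9 were used. The labels call each mouse its own biological replicate. The values of 1 member are not reported here, though it stays in counts, sums and medians.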

Additional observations from a re-analysis of the deposited data

Results flagged for a closer look

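Among 52 groups examined (26 named members in WT and in KO), 3 had a library whose gap to its nearest neighbour was too large a share of the group's whole range by Dixon's test, where chance gives about 1 in 20 groups. In KO 3, Col19a1 stood at 3.72 TPM, while KO 1, KO 2 and KO 4 held 5.77 to 6.14 TPM. In KO 1, Col4a4 stood at 2.28 TPM, with 0.98 to 1.18 TPM in KO 2 to KO 4. In KO 4, Lama4 stood at 21.2 TPM, with 15.2 to 16.01 TPM in KO 1 to KO 3.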

How the results depend on the processing

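The count of members passing was 0 under every alternative run. For all genes it was 0 except for 1 without trend and robust estimation and 2 without the Mbp-high pair, and leaving out 1 library gave 0 to 1, the 1 without KO 3. The median over the members was 0.403 to 0.920 with 1 library left out (lowest without WT 1, highest without WT 3), 0.404 after quantile normalization and 0.142 without the Mbp-high pair. Left-out libraries moved the laminin median to 0.130 (without KO 4) and the fibrillar median to 1.256 (without WT 3). That of other collagens was 0.139 without the Mbp-high pair and 1.206 with a pseudocount of 0.1 TPM, where low genes weigh more by construction. Without both, the difference of Col25a1 turned to 0.213, Col4a5 to -0.048, Col9a2 to -0.129, Col9a3 to 0.010 and Lamb1 to 0.475. Leaving out single libraries took Lamb1 between -0.383 and 0.186 and Lamb2 between -0.177 and 0.155; the cause was not tested. Over named members and alternatives, 386 values kept sign and side of the threshold and 11 turned sign. Part of the 386 was fixed by construction, because changing the filter, variance model or replicate block leaves a fitted difference as it was. No member passed in the main fit or under any alternative, so none changed its side of the threshold. Same-numbered KO and WT libraries had correlations of deviations from their group means of -0.1, 0.074, 0.065 and 0.027. Those of different number ran from -0.241 to 0.208. The WT deviations contain the split of the Mbp-high pair, so these values cannot decide whether libraries were paired. With the replicate block, 0 genes and 0 members passed. The member median of 0.696 could not change there, because each number holds 1 WT and 1 KO library. Depth is unknown, so low levels cannot be given a counting limit.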

Other observations

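Matrix proteases and their inhibitors were measured beside the members. Of 11 genes, 10 were tested and 0 passed in KO against WT, with 7 above 0 and 3 below and a median difference of 0.32, and -0.06 without the Mbp-high pair. Mmp14, a membrane-bound collagenase, was at 13.6 and 16.7 TPM in the Mbp-high pair against 37.0 to 55.6 TPM in the other 6, and Mmp16 at 15.99 and 16.3 TPM against 57.1 to 77.2 TPM. The inhibitors split in the same pair of libraries, with Timp3 at 116 and 119 TPM and Timp4 at 138 and 119 TPM against 44.0 to 68.1 TPM and 17.99 to 58.8 TPM, whereas Timp2 was lower there, at 136 and 167 TPM against 184 to 255 TPM.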
